A study of Mus musculus with 12 samples.

Results

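Thymocytes that carry the NHD13 fusion were set against wild-type thymocytes, with the question of which fusion effects were seen both with and without Lyl1. The fusion-carrying side held all 6 transgenic arrays of the series, 3 of NHD13 and 3 of NHD13 Lyl1-knockout mice, and the other side all 6 wild-type arrays, so that the comparison used 12 of 12 arrays. All arrays measured RNA of CD4-CD8 double-negative (DN) thymocytes, the T-cell precursors that bear neither coreceptor, sorted from mice of 2 to 3 months on the C57 BL/6 background, with 300 ng of RNA an array. The NHD13 transgene encodes a protein that joins Nup98, a nuclear pore component, to the homeobox protein Hoxd13, and the NHD13 Lyl1-knockout mice have this transgene while lacking Lyl1, a DNA-binding factor of the basic helix-loop-helix family that acts in blood progenitors. No group lacked Lyl1 without carrying the transgene, so in the knockout group an effect of the fusion and an effect of the missing Lyl1 cannot be told apart. A gene is therefore described as shared only where it was called in both transgenic groups. The labels do not say whether each array was a mouse of its own, so that p-values measure the spread between these samples, which may be technical.

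Fusions of NUP98 with homeobox proteins are known from human acute leukaemia, where they sit at chromatin and keep homeobox (HOX) genes active. HOX proteins are transcription factors that pattern the embryo and, in blood, are high in stem and early progenitor cells and fall as cells commit to a lineage. They bind DNA together with homeodomain partners of the PBX and MEIS families. A DN thymocyte normally passes through Notch signalling, rearrangement of its T-cell receptor genes and rapid division, and loses progenitor genes such as Kit on the way.

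The arrays fell into a narrow and a wide class by the spread of the signal of probes that no array detected. Wild-type replicates 1 to 3 and the knockout group were narrow (SD of the log2 signal 0.0708 to 0.0958), and NHD13 and wild-type replicates 4 to 6 were wide (0.133 to 0.162). NHD13 was therefore set against wild type 4 to 6 and the knockout group against wild type 1 to 3, which gives 2 comparisons that share no array, and their average equals the difference of the 6 fusion-carrying and the 6 wild-type means. The match of the knockout group rests on that spread alone. In the pattern over the same probes, the knockout arrays correlated at 0.31 to 0.40 (Spearman, 19512 probes) with wild type 4 to 6 and at 0.08 to 0.12 with wild type 1 to 3. The average does not change if the classes are crossed, but the matched values do. Sex differed too: NHD13 and wild type 4 to 6 were female by their Xist and Y-linked probes, knockout replicates 1 and 2 were female and replicate 3 male, and wild type 1 to 3 were male. Each array detected 17168 to 19464 of 45281 probes, and the number of arrays limits the precision. The DN label was set against its markers. Thy1, Cd3e, Cd3g, Il7r and Il2ra, which mark early T cells, were detected on 6 of 6 fusion-carrying and 6 of 6 wild-type arrays, Cd4 on 2 of 6 on each side, and Cd8a, the alpha chain of CD8, on 0 of 12 arrays by both of its probes. Cd8b1, the beta chain, was detected on 12 of 12 (by 2 dimmer probes on 11 and 8), with 11.93 to 13.53 in fusion-carrying and 11.31 to 12.39 in wild-type arrays, although CD8 is one of the 2 coreceptors the sort was to leave out. The mean level of the DN identity genes was -1.85 on knockout replicate 1 and -0.38 to 0.14 on the other fusion-carrying arrays, relative to the wild-type mean. Knockout replicate 1 stood apart, with neutrophil and macrophage markers 4.27 above the wild-type mean on the log2 scale and T cell receptor signalling genes 2.55 below it.

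The targeted gene followed the labels. Lyl1 had log2 signals of 11.18, 11.19 and 11.10 in NHD13 and of 4.75, 4.73 and 4.68 in NHD13 Lyl1-knockout, where no array detected it, against 6.79 to 7.39 (median 7.27) in wild type. It was 3.97 ± 0.18 (SE) higher in NHD13 than in wild type 4 to 6 on the log2 scale (limma, adjusted p = 2.92e-06), and at least 3.49-fold lower in the knockout group than in wild type 1 to 3 (adjusted p = 5.29e-05). Its average of 0.74 is a mean of opposite effects and no shared one. Nup98 averaged 8.14 ± 0.42 in fusion-carrying and 8.35 ± 0.21 in wild-type arrays (SD, n = 6 each; adjusted p = 0.309), and Hoxd13 was detected on 1 wild-type array of 12 and not kept. No source used here says whether these mouse probes read the transcript of the transgene, so that they check nothing.

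Over all 10497 genes measured, the average of the matched effects was called higher in 1102 (10.5%) and lower in 883 (8.41%). By probe, 1819 of 20416 were higher (8.91%) and 1980 lower (9.7%). In NHD13 against wild type 4 to 6, 949 genes were higher (9.04%) and 1182 lower (11.3%). In the knockout group against wild type 1 to 3, 779 were higher (7.42%) and 540 lower (5.14%). Called higher in both were 143 genes (1.36%), which are 15.1% of the genes higher in NHD13 and 18.4% of those higher in the knockout group. Called lower in both were 75 genes (0.714%), or 6.35% of the lower genes of NHD13 and 13.9% of those of the knockout group. In 87 genes (0.829%) the calls went in opposite directions, 39 of them higher in NHD13 and lower in the knockout group. The difference between the matched effects was itself called in 1499 genes (14.3%).

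The average over all 6 transgenic arrays thus mixes several kinds of gene. Of its 1985 called genes, 218 were called in both groups in the same direction, 1482 in 1 group only, and 277 in neither group alone, with the few others called in opposite directions. A call of the average is for that reason not by itself an effect seen without Lyl1. Across the 10497 genes the matched effects correlated weakly (Pearson 0.21, Spearman 0.13), over genes of the same 12 arrays, which are not independent. The shared genes depended on the match: 122 of the 218 were also called in both groups with the classes crossed (212 there), and 156 without knockout replicate 1 (252 there). With sex as a covariate, which leaves knockout replicate 3 as the only knockout array of the sex of wild type 1 to 3, 48 genes were higher and 24 lower in both groups. The counts also depended on the scaling. With median scaling 2901 genes were higher and 337 lower in the average, and 515 were higher and 33 lower in both groups.

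All 6 fusion-carrying arrays lay above all 6 wild-type arrays in 259 genes (2.47%) and below them in 212 (2.02%). Together with calls in both groups and in the average, this left 110 genes higher (1.05%) and 63 lower (0.6%). The median size of the matched effect in these 173 genes was 1.34 in NHD13 and 1.32 in the knockout group on the log2 scale, and the effect was the larger one in NHD13 in 95 of them. The difference between the matched effects was called in 10 of the 173, beside 14.3% of all genes. The 173 were selected by calls in the same direction in both groups, which favours effects of like size and few called differences. Its 95% interval, which is not adjusted for the number of probes, left out 0 in 31 of the 173. For 57 of the 173 this interval lay within 1 on the log2 scale on either side of 0. However, 5 of these 57 were detected on no array of at least 1 transgenic group, where an effect is only a bound. For the others the interval reached further, and a test that misses the threshold does not show equal effects.

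**Figure D1:**
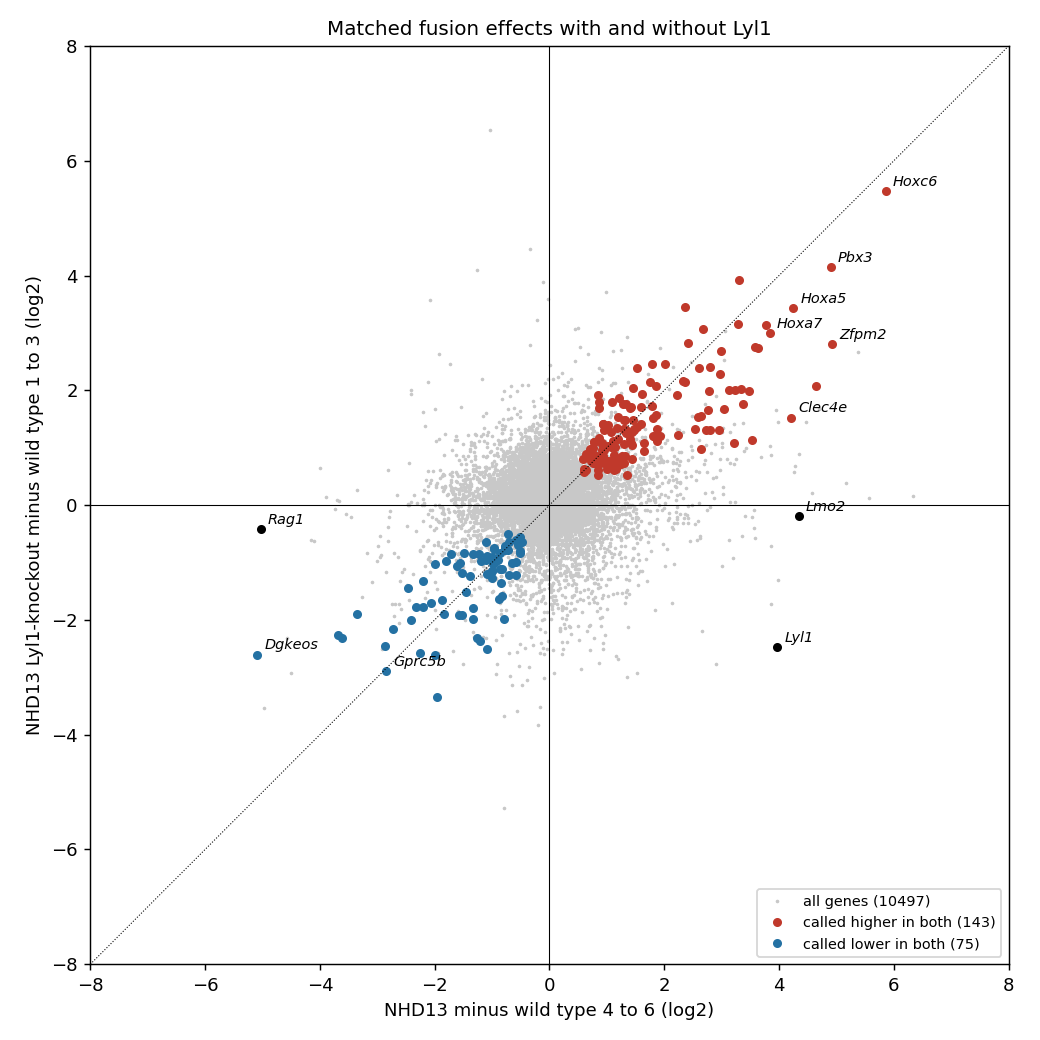
Log2 difference of NHD13 minus wild type 4 to 6 (horizontal) and of NHD13 Lyl1-knockout minus wild type 1 to 3 (vertical) for each of 10497 genes. Red points were called higher in both comparisons (143 genes) and blue points lower in both (75). Hoxc6, Pbx3, Hoxa5 and Hoxa7 lie near the dotted line of equal effects, on the side of larger effects in NHD13, and Lyl1, Lmo2 and Rag1 (black) lie far from it.

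Among the 28 gene lists, HOX genes had the highest share of members called higher in both groups. Of 39 listed, 18 were measured. In the average 10 were higher and 0 lower, beside 10.5% and 8.41% of all genes, and 8 were higher in both groups, beside 1.36% of all genes. All 8 lay without overlap above wild type, beside 2.47% of all genes: Hoxc6, Hoxa5, Hoxa7, Hoxb7, Hoxa9, Hoxa2, Hoxb5 and Hoxb4. No wild-type array detected Hoxc6, Hoxb7 or Hoxa9. These genes passed the detection filter only through fusion-carrying arrays, so that they could not have been called lower. The median difference of the 18 was 1.40 in the average, 1.66 in NHD13 and 1.43 in the knockout group, beside 0.04, -0.04 and 0.13 over all genes. The difference between the groups' effects was called by limma in 0 of the 18, beside 14.3% of all genes, and in 2 with the classes crossed. With so few members 0 does not set the list apart, and a missed threshold does not show equal effects. Without knockout replicate 1, with the classes crossed and with median scaling, 8 members were again higher in both groups. These genes had been known to stand out in these data before the list was made.

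Hoxc6 gave the widest difference among the shared genes. Its log2 signal was 8.41, 11.40 and 12.02 in NHD13 and 8.26, 11.76 and 10.99 in NHD13 Lyl1-knockout, against 4.63 to 5.16 (median 4.76) in wild type, where no array detected it. Each transgenic group held 1 array well under its others, yet all 6 lay above wild type. The difference was 5.67 ± 0.67 on the log2 scale (SE; limma, adjusted p = 0.000594), which is at least 33.7-fold higher, and it was 5.86 in NHD13 and 5.47 in the knockout group. The 95% interval of the difference between the groups' effects was wide, from -2.55 to 3.34.

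Hoxa7 and Hoxa5 were the steadiest of the HOX genes and were also detected in wild type. Hoxa7 had 12.49, 12.24 and 12.45 in NHD13 and 11.96, 12.55 and 12.24 in NHD13 Lyl1-knockout, against 8.34 to 9.76 (median 8.86) in wild type. Its difference was 3.41 ± 0.17 (adjusted p = 3.03e-06), with 3.84 in NHD13 and 2.99 in the knockout group. Hoxa5 had 10.67, 11.63 and 11.80 in NHD13 and 10.40, 10.79 and 11.02 in the knockout group, against 6.93 to 7.56 (median 7.15) in wild type. Its difference was 3.84 ± 0.21 (adjusted p = 5.7e-06), with 4.25 in NHD13 and 3.43 in the knockout group. For both genes the gap between the lowest fusion-carrying and the highest wild-type array was wider than the spread within either side.

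Hoxa9, a gene long tied to leukaemia and to progenitor self-renewal, varied more. It had 7.22, 9.11 and 5.67 in NHD13 and 8.12, 8.59 and 7.64 in NHD13 Lyl1-knockout, against 4.54 to 5.04 (median 4.88) in wild type, where no array detected it. It was at least 5.02-fold higher (fusion-carrying mean 7.73, wild-type mean 4.82, adjusted p = 0.00253). Hoxb7 had 8.37, 9.12 and 6.24 in NHD13 and 7.03, 8.32 and 8.19 in the knockout group, against 4.50 to 4.93 (median 4.58) in wild type, and was at least 5.58-fold higher (means 7.88 and 4.66, adjusted p = 0.00104). NHD13 replicate 3 was the lowest fusion-carrying array for both genes. Calls in both groups were kept in 15 of 22 alternatives for Hoxa9 and in 21 of 22 for Hoxb7, and in every alternative for Hoxc6 (22 of 22), Hoxa5 and Hoxa7 (23 of 23 each).

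The other shared members were Hoxa2, Hoxb5 and Hoxb4, with average differences of 2.60, 2.50 and 2.07. Hoxb4, which can expand blood stem cells when overexpressed, had 7.60, 8.38 and 7.58 in NHD13 and 8.20, 8.40 and 8.39 in the knockout group, against 5.29 to 6.97 in wild type. Hoxa3 and Hoxa4 were called in the average (1.04 and 0.90), Hoxa3 in NHD13 (1.49) and not in the knockout group (0.59, adjusted p = 0.27), and Hoxa4 in the knockout group (1.16) and not in NHD13 (0.64, adjusted p = 0.23). The other 8 measured members passed no test in the average. Hoxb6 had a difference of 1.76 (adjusted p = 0.056) and was detected on 4 of 6 fusion-carrying and 0 of 6 wild-type arrays. The others, Hoxa13, Hoxb2, Hoxb3, Hoxc4, Hoxc8, Hoxc10 and Hoxd11, had differences from -0.19 to 0.40.

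**Figure D2:**
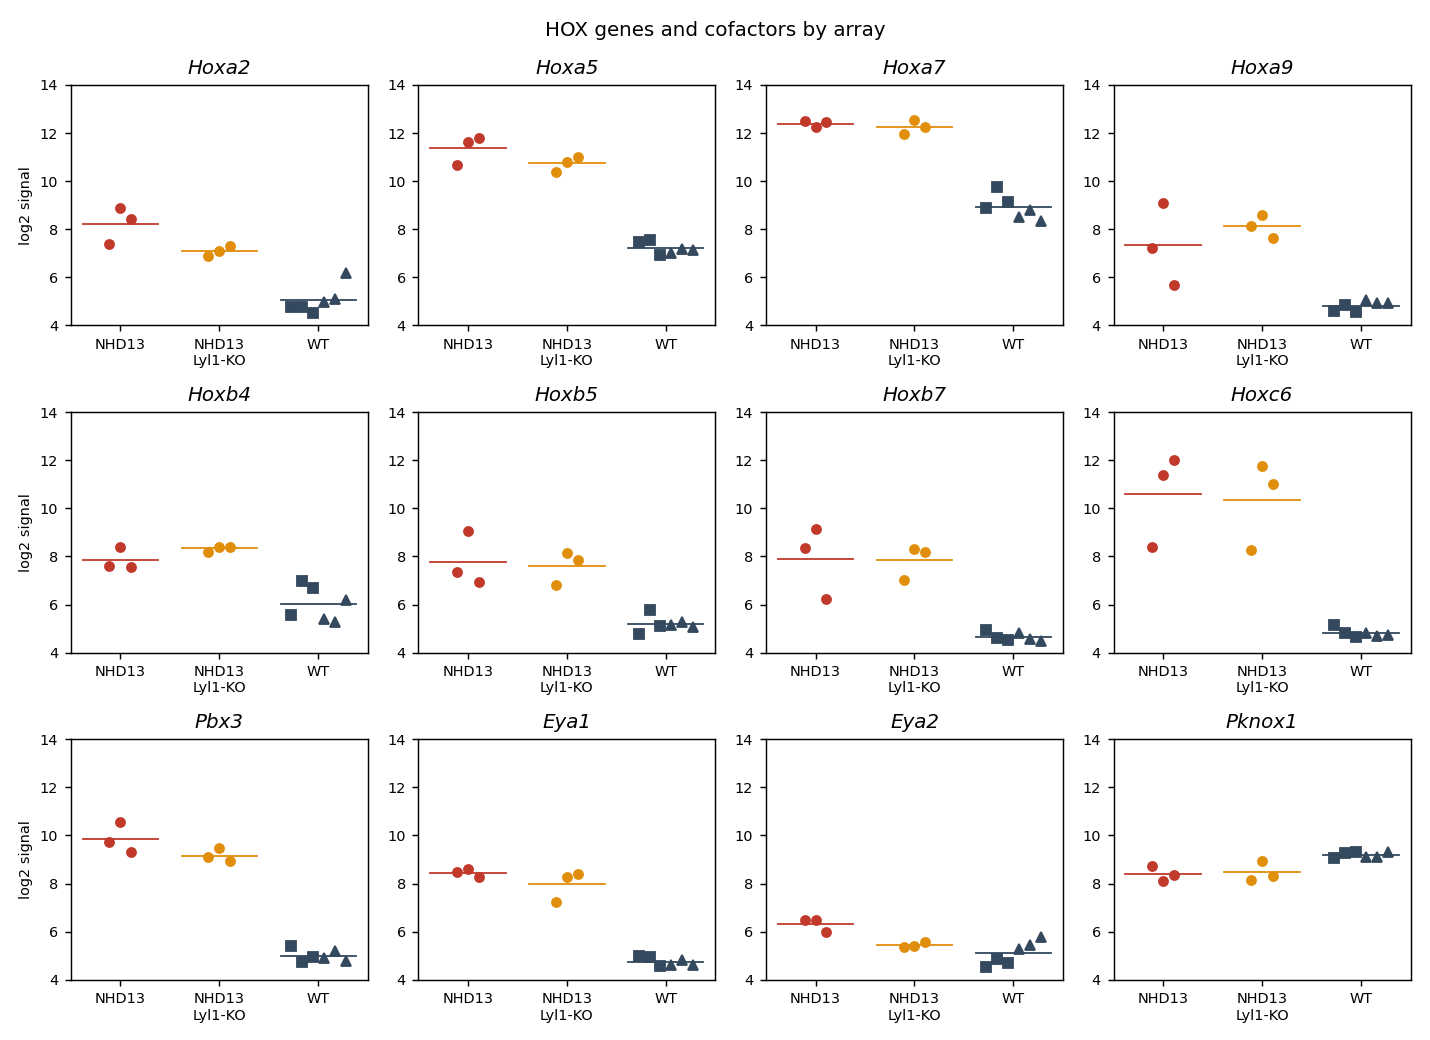
Log2 signal of 8 HOX genes and 4 cofactors on each array, by group, with the group mean as a line; in wild type, squares are replicates 1 to 3 and triangles replicates 4 to 6. All fusion-carrying arrays lie above all wild-type arrays for the 8 HOX genes, Pbx3 and Eya1; Eya2 of the knockout group overlaps wild type, and Pknox1 lies lower in both transgenic groups.

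Along the chromosomes, 10488 of the genes could be placed, and 2 runs of at least 3 neighbouring measured genes were called the same way in both groups. One was Hoxa5, Hoxa7 and Hoxa9 in the HoxA cluster on chromosome 6. Since these neighbours were higher together, the 250 bases upstream of each start are shown, from RefSeq on GRCm38.p6, all on the minus strand and written 5′ to 3′, at chr6:52204588-52204837 for Hoxa5, chr6:52218574-52218823 for Hoxa7 and chr6:52227371-52227620 for Hoxa9. Capitals mark matches, on either strand, to TGATNNAT (a composite site of HOX and PBX proteins), CAGNTG (an E-box, read by basic helix-loop-helix proteins) or TTTACGA (a site of HOXD13 and its kin).
Hoxa5: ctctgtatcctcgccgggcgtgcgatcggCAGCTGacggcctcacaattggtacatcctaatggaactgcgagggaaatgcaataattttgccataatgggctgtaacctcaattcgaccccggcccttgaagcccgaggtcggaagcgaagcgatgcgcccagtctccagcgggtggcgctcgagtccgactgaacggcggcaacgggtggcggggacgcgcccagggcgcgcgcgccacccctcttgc
Hoxa7: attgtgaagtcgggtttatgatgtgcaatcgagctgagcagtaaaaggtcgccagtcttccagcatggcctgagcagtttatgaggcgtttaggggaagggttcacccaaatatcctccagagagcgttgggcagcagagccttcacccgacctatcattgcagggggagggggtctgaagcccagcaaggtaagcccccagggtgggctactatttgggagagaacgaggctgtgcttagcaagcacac
Hoxa9: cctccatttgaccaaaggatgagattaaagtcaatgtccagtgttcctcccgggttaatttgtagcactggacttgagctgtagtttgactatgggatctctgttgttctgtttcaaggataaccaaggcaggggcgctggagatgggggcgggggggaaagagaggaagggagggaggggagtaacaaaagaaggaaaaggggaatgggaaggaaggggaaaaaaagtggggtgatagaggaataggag
Only the Hoxa5 stretch held a match, 1 E-box. Over the 300 bases from 250 before to 50 after the start, the E-box stood in 45 of the 88 promoters matched for the 110 higher genes (51.1%), beside 48.0% of 8557 promoters of measured genes. TGATNNAT stood in 2 of 88 (2.27%, beside 5.03%), and TTTACGA in 0 of 88, beside 0.876%. For the 63 lower genes 49 promoters were matched, too small a share (77.8%) for a count to be read. A match is a description of letters and no evidence of binding.

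The cofactors of HOX proteins did not move as a block. Of 9 measured, 4 were higher and 1 lower in the average, beside 10.5% and 8.41% of all genes, and 3 were higher and 1 lower in both groups, beside 1.36% and 0.714%. Without knockout replicate 1, 3 were higher and 0 lower in both, and with the classes crossed 2 and 0. Pbx3, a homeodomain partner that raises the DNA affinity of HOX proteins, had 9.71, 10.57 and 9.32 in NHD13 and 9.12, 9.46 and 8.92 in NHD13 Lyl1-knockout, against 4.72 to 5.41 (median 4.93) in wild type. Wild type detected it on 1 of 6 arrays. The difference was 4.52 ± 0.22 (adjusted p = 2.56e-06), with 4.90 in NHD13 and 4.14 in the knockout group, and a 2nd probe gave 4.63. Eya1, a phosphatase and coactivator that works with homeobox proteins of another family, had 8.49, 8.59 and 8.29 in NHD13 and 7.25, 8.26 and 8.41 in the knockout group, against 4.56 to 4.99 (median 4.72) in wild type, where no array detected it. It was at least 7.04-fold higher (means 8.21 and 4.75, adjusted p = 6.27e-06). Both genes met the detection filter only through fusion-carrying arrays, so that Eya1 could not have been called lower. Pbx3 and Eya1 kept their calls in both groups in 22 of 22 alternatives.

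Eya2, a paralogue of Eya1, depended on the matching. Its 6.47, 6.48 and 5.97 in NHD13 lay above all of wild type (4.55 to 5.79), while its 5.35, 5.40 and 5.56 in the knockout group lay above wild type 1 to 3 and among wild type 4 to 6, and both calls held in 9 of 22 alternatives. Pknox1, a homeodomain protein that pairs with PBX proteins, was lower by 0.76 on the log2 scale in the average (-0.76 ± 0.16, adjusted p = 0.00888). It had 8.71, 8.11 and 8.37 in NHD13 and 8.16, 8.93 and 8.30 in the knockout group, against 9.06 to 9.33 in wild type, without overlap, and kept both calls in 7 of 23 alternatives. Meis1, the partner most often named beside Hoxa9 in leukaemia, was not called in either group. It had 4.71, 4.79 and 4.87 in NHD13 and 9.57, 5.21 and 6.60 in the knockout group, against 4.69 to 5.57 in wild type, and its high value was that of knockout replicate 1.

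**Figure D3:**
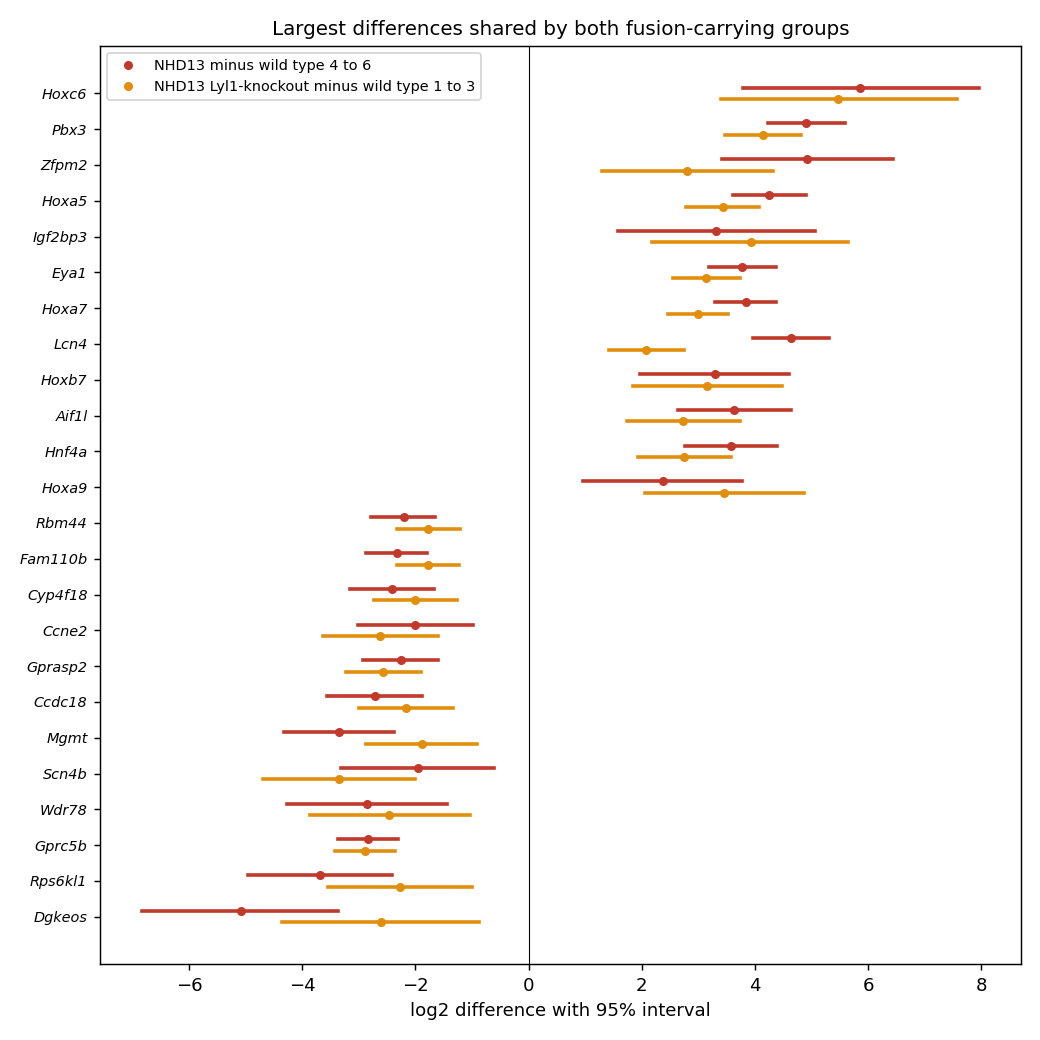
Log2 differences with 95% intervals for the 12 genes with the widest shared rise and the 12 with the widest shared fall, in NHD13 against wild type 4 to 6 (red, upper of each pair) and in NHD13 Lyl1-knockout against wild type 1 to 3 (orange). No interval reaches 0, which was set by picking genes called in both comparisons, and those of Lcn4 do not overlap each other.

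Beyond the HOX genes and their partners, the widest shared rises were those of Zfpm2, Igf2bp3, Lcn4, Aif1l and Hnf4a. Igf2bp3, an RNA-binding protein of fetal tissue that is silent in most adult cells, had 11.09, 10.57 and 10.39 in NHD13 and 12.41, 10.21 and 8.30 in NHD13 Lyl1-knockout, against 5.80 to 7.81 (median 6.70) in wild type. The difference was 3.61 ± 0.56 (adjusted p = 0.00245), and 3 of its 4 other probes were also called higher. Hnf4a, a nuclear receptor of liver and gut, had 8.68, 9.16 and 9.93 in NHD13 and 9.44, 8.51 and 8.24 in the knockout group, against 5.48 to 6.28 in wild type, a difference of 3.17 ± 0.26 (adjusted p = 0.000116). Neither gene overlapped between the sides.

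Aif1l, an actin-binding protein, was not detected in wild type (4.83 to 5.10) and had 9.77, 7.62 and 8.36 in NHD13 and 7.02, 8.12 and 7.92 in the knockout group, at least 6.67-fold higher (means 8.14 and 4.96, adjusted p = 0.0003). Zfpm2, a cofactor of GATA proteins, had 9.75, 9.46 and 9.32 in NHD13 and 5.47, 8.80 and 8.68 in the knockout group, against 4.55 to 5.24 in wild type (3.86 ± 0.48, adjusted p = 0.000847). Knockout replicate 1 was near wild type for this gene, and another Zfpm2 probe gave -0.08, so that its probes disagree. Aif1l and Zfpm2, detected on 0 and 1 of 6 wild-type arrays, met the detection filter only through fusion-carrying arrays. Aif1l could thus not have been called lower. Lcn4, a lipocalin, rose in both groups but unequally, with 11.79, 12.32 and 12.52 in NHD13 and 9.20, 8.47 and 8.60 in the knockout group, against 6.35 to 8.12 in wild type. Its effect was 2.56 larger in NHD13 on the log2 scale (adjusted p = 0.00524).

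Other shared rises were also unequal. With Lcn4, the genes named for the widest called difference between the groups' effects were Clec4e, a lectin receptor of myeloid cells (2.69), P2ry1, an ADP receptor (2.41), and the growth factor gene Tgfb3 (2.13). P2ry1 had 8.59, 8.86 and 8.79 in NHD13 and 7.06, 6.16 and 5.81 in NHD13 Lyl1-knockout, against 4.97 to 5.57 in wild type, so that both groups lay above wild type and NHD13 farther. Tgfb3 had 9.32, 9.51 and 9.60 in NHD13 and 6.88, 6.28 and 6.30 in the knockout group, against 4.91 to 6.47 in wild type. Clec4e had 10.49, 10.29 and 10.65 in NHD13 and 7.69, 6.06 and 5.35 in the knockout group, against 4.56 to 6.54 in wild type. The knockout values of Tgfb3 and Clec4e overlapped wild type 4 to 6, and Clec4e kept both calls in 3 of 22 alternatives.

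Among genes of blood progenitors the shared members were few. Of 15 measured progenitor regulators, 5 were higher and 1 lower in the average, beside 10.5% and 8.41% of all genes, and 1 was higher in both groups, beside 1.36%. The one in both was Gfi1b, a repressor of erythroid and megakaryocyte precursors, with 7.44, 8.77 and 8.51 in NHD13 and 9.04, 6.88 and 7.28 in NHD13 Lyl1-knockout, against 4.65 to 6.44 (median 5.34) in wild type. The difference was 2.62 ± 0.37 (adjusted p = 0.00167), and a 2nd probe gave 2.24. The median of the 15 was 0.78 in NHD13 and -0.19 in the knockout group. With knockout replicate 1 left out, 7 were higher and 1 lower in the average, 1 was higher and 1 lower in both groups, and the median in the knockout group was -0.59. Lmo2, a LIM-domain adaptor of stem cells, was raised in NHD13 and on 1 knockout array. It had 10.75, 11.69 and 11.87 in NHD13 and 12.60, 6.21 and 6.37 in the knockout group, against 6.91 to 8.73 in wild type, with 4.34 in NHD13 (adjusted p = 0.0419) and -0.19 in the knockout group (adjusted p = 0.938). The average of 2.08 was not called (adjusted p = 0.139).

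Of 9 measured progenitor receptors, 4 were higher in the average, beside 10.5% of all genes, and 1, Kit, in both groups, beside 1.36%. Kit is the receptor of stem cell factor and marks the earliest thymic cells. It had 12.63, 13.72 and 12.90 in NHD13 and 12.49, 10.58 and 11.97 in the knockout group, against 9.76 to 10.66 (median 10.43) in wild type. The difference was 2.06 ± 0.32 (adjusted p = 0.00248), with 2.58 in NHD13 and 1.54 in the knockout group. Knockout replicate 2 lay within the wild-type range, and a 2nd, dimmer Kit probe gave 3.37 in NHD13 and 0.23 in the knockout group. Without knockout replicate 1, 0 progenitor receptors were called in both groups, and Kit kept both calls in 10 of 23 alternatives.

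Notch genes moved in both directions. Of 15 measured, 5 were higher and 4 lower in the average, beside 10.5% and 8.41% of all genes, and 1 was higher in both groups, beside 1.36%. With median scaling 6 were higher and 1 lower, beside 2901 higher and 337 lower of all 10497 genes. Dtx1, a ubiquitin ligase that Notch switches on, had 10.59, 11.23 and 11.07 in NHD13 and 9.62, 10.14 and 11.38 in the knockout group, against 8.45 to 9.68 in wild type (1.57 ± 0.26, adjusted p = 0.0034). Knockout replicate 1 lay within the range of wild type 4 to 6 (9.42 to 9.68), and Dtx1 kept both calls in 15 of 23 alternatives and lost them with the classes crossed. The 4 lower members were Notch3, Myc, Ptcra and Bcl6, with average differences of -0.84, -1.53, -1.79 and -0.61, and 3 of them were called in NHD13 and 0 in the knockout group.

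Interferon-response genes were higher in the average in 16 of 24 measured members, beside 10.5% of all genes, but mostly through NHD13. They were higher in NHD13 in 17 and in the knockout group in 4, beside 9.04% and 7.42% of all genes. In both groups 3 were higher, beside 1.36%. The difference between the groups' effects was called in 8, beside 14.3%. The median was 1.75 in NHD13 and 0.52 in the knockout group. Without knockout replicate 1, 7 members were higher in both groups. The shared 3 were Irf7, a transcription factor that amplifies the response, Isg15, a ubiquitin-like protein, and the nuclease Isg20.

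Irf7 had 9.65, 10.45 and 9.44 in NHD13 and 7.97, 7.58 and 8.69 in the knockout group, against 6.24 to 7.07 in wild type, without overlap. Its difference was 2.36 ± 0.22 (adjusted p = 0.000213), and it kept both calls in 22 of 23 alternatives. Isg15 had 12.07, 11.71 and 10.82 in NHD13 and 9.38, 10.10 and 11.21 in the knockout group, against 7.67 to 8.80 in wild type (2.57 ± 0.34, adjusted p = 0.00106). For both genes the NHD13 values lay mostly above those of the knockout group. Isg20 had 7.51, 6.87 and 7.98 in the knockout group, which overlap wild type 4 to 6 (7.18 to 7.57). Its 9.38, 9.18 and 8.89 in NHD13 lay above all of wild type (adjusted p = 0.00128 in the average).

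The shared falls were led by genes that wild-type arrays detected and most fusion-carrying arrays did not. Gprc5b, an orphan G protein-coupled receptor, had 4.72, 4.76 and 4.82 in NHD13 and 4.73, 5.42 and 5.31 in NHD13 Lyl1-knockout, with no array detecting it, against 7.40 to 8.53 (median 7.79) in wild type. It was at least 5.33-fold lower (means 4.96 and 7.83, adjusted p = 1.15e-05), although a 2nd, dimmer probe gave -0.27 and was not called. Rbm44, an RNA-binding protein of germ cells, had 4.75, 4.83 and 5.17 in NHD13 and 5.27, 5.36 and 4.90 in the knockout group, against 6.44 to 7.32 in wild type, at least 3.09-fold lower (means 5.05 and 7.04, adjusted p = 0.000186). For both genes neither transgenic group was detected, so that the sizes of their effects cannot be compared. They passed the detection filter only through wild-type arrays and could not have been called higher.

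Fam110b, a centrosomal protein, had 4.74, 5.21 and 4.75 in NHD13 and 5.17, 5.69 and 4.78 in the knockout group, against 6.68 to 7.44 in wild type (-2.05 ± 0.17, adjusted p = 0.000132). Gprasp2, which sorts G protein-coupled receptors, had 5.84, 4.80 and 4.80 in NHD13 and 4.73, 5.47 and 4.85 in the knockout group, against 7.23 to 7.79 in wild type (-2.41 ± 0.21, adjusted p = 0.000166). Cyp4f18, which breaks down leukotriene B4, had 4.73, 6.15 and 5.07 in NHD13 and 5.28, 4.71 and 5.20 in the knockout group, against 6.67 to 7.83 in wild type (-2.21 ± 0.24, adjusted p = 0.000415). Gprc5b, Rbm44, Fam110b and Gprasp2 kept both calls in 22 of 22 alternatives and Cyp4f18 in 21 of 22, while another, dimmer Cyp4f18 probe gave -0.24 (adjusted p = 0.33). Fam110b, Gprasp2 and Cyp4f18 were detected on 1, 2 and 1 of 6 fusion-carrying arrays and met the filter through wild type.

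The other wide falls were uneven within the knockout group, and that of Scn4b within NHD13 too. Dgkeos, a transcript opposite the lipid kinase gene Dgke, had 4.84, 4.73 and 4.66 in NHD13 and 4.80, 9.08 and 7.95 in the knockout group, against 9.74 to 9.99 in wild type (-3.85 ± 0.56, adjusted p = 0.0018). Rps6kl1, named for its likeness to ribosomal S6 kinases, had 5.02, 4.60 and 4.63 in NHD13 and 4.62, 7.76 and 6.63 in the knockout group, against 8.30 to 8.69 in wild type. In both genes knockout replicate 1 lay with NHD13 and replicates 2 and 3 between NHD13 and wild type. Each was detected on 2 of 6 fusion-carrying arrays and met the filter through wild type. Wdr78, Scn4b, Mgmt and Ccdc18 had average differences of -2.66, -2.65, -2.62 and -2.44, and knockout replicate 1 was the lowest of its group for 3 of these 4, while for Scn4b it was replicate 3. Scn4b had 8.72, 6.23 and 6.21 in NHD13 and 5.62, 6.65 and 4.92 in the knockout group, against 8.80 to 9.45 in wild type. Mgmt repairs alkylated guanine in DNA and had 4.61, 5.81 and 4.67 in NHD13 and 6.06, 6.98 and 8.06 in the knockout group, against a lowest value of 8.27 and a median of 8.70 in wild type (adjusted p = 0.000633). Dgkeos kept both calls in 6 of 22 alternatives and Scn4b in 10 of 22, where a 2nd probe gave -0.02.

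Cell-cycle genes fell in the average, mainly through NHD13. Of 28 measured DNA replication genes, 14 were lower and 0 higher in the average, beside 8.41% of all genes. In NHD13 25 were lower and in the knockout group 0, beside 11.3% and 5.14% of all genes. The difference between the effects was called in 9, beside 14.3%. In both groups 0 were lower, beside 0.714% of all genes, too small a share for 0 to set the list apart. With median scaling, under which the median difference of all genes was 0.300 in place of 0.038, 1 of the 28 was lower in the average and 16 in NHD13, with 5 higher in the knockout group, and without knockout replicate 1 there were 10 in the average. Mitosis genes were lower in 7 of 20 in the average, beside 8.41% of all genes. They were lower in 16 in NHD13 and in 0 in the knockout group, beside 11.3% and 5.14%. With median scaling the counts were 2, 9 and 0. Tyms, which makes thymidylate for DNA synthesis, had 11.40, 10.08 and 9.85 in NHD13 and 11.16, 11.96 and 11.22 in the knockout group, against 11.98 to 12.45 in wild type (-1.22 ± 0.25 in the average, adjusted p = 0.00859; -0.86 in the knockout group, adjusted p = 0.128).

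The one member of the cell-cycle lists called lower in both groups was Ccne2. This cyclin E gene, which drives entry into S phase, had 7.39, 6.64 and 5.61 in NHD13 and 6.12, 7.74 and 7.09 in the knockout group, against 8.33 to 10.02 (median 9.01) in wild type, and kept both calls in 18 of 23 alternatives. The difference was -2.31 ± 0.33 (adjusted p = 0.00165), with -2.00 in NHD13 and -2.62 in the knockout group, and all 6 fusion-carrying arrays lay below wild type. Of 22 measured genes of ribosome biogenesis and MYC targets, 10 were lower in the average, beside 8.41% of all genes. In NHD13 14 were lower and in the knockout group 1, beside 11.3% and 5.14%. With median scaling 3 were lower in the average, beside 337 of all 10497 genes, and 5 in NHD13. In the knockout group 9 were then higher and 0 lower. The shared one was Gnl3, a nucleolar GTP-binding protein, with 7.18 to 8.63 in fusion-carrying and 8.72 to 9.35 in wild-type arrays (-1.15 ± 0.21, adjusted p = 0.00517). It kept both calls in 10 of 23 alternatives and lost them with median scaling, with the classes crossed and with sex as a covariate.

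Counts in the p53, glycolysis and BCL2 lists changed with the scaling, as did those of all genes. Their members called in both groups are set beside 1.36% higher and 0.714% lower of all genes. Median-scaled counts stand beside 2901 of 10497 genes higher and 337 lower in the average, and 515 higher and 33 lower in both groups. A change under median scaling is therefore not by itself particular to these lists. Of 19 measured p53 targets and DNA damage genes, 6 were higher and 2 lower in the average, beside 10.5% and 8.41% of all genes, and 1 was higher in both groups, the stress-response gene Gadd45g (median 8.44 in fusion-carrying and 7.39 in wild-type arrays, without overlap; 1.21 ± 0.19, adjusted p = 0.00253), and Mgmt was lower in both. Gadd45g kept both calls in 15 of 23 alternatives and Mgmt in 16 of 22, and with median scaling 4 members were higher in both. Of 16 glycolysis genes 2 were lower in the average, beside 8.41% of all genes, and the phosphofructokinase gene Pfkp in both groups (8.36 to 9.20 in fusion-carrying and 9.68 to 10.00 in wild-type arrays; -0.96 ± 0.12, adjusted p = 0.000899). Another Pfkp probe gave 0.17 in NHD13 and -0.50 in the average (adjusted p = 0.169). With median scaling Pfkp was not called in both groups, and 4 glycolysis genes were higher and 1 lower in the average. The BCL2 family had 3 of 14 members higher and 2 lower in the average, beside 10.5% and 8.41% of all genes, and 0 in both groups. With median scaling 7 were higher and 0 lower, and 2 were higher in both.

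The lists of the T-cell programme had 0 members called in both groups, beside 1.36% higher and 0.714% lower of all genes. With shares that small, 0 does not set these lists apart from all genes. Without knockout replicate 1, 1 V(D)J gene was lower in both, and 1 gene each of T cell receptor signalling, of the coreceptors and later thymocytes and of the guidance, adhesion and homing receptors was higher in both. With the classes crossed, 1 V(D)J gene was lower and 1 coreceptor or later thymocyte gene higher in both. Of 16 measured genes of V(D)J recombination and the pre-receptor, 4 were lower in the average, beside 8.41% of all genes. In NHD13 3 were lower and in the knockout group 1, beside 11.3% and 5.14%. Rag1, part of the recombinase that rearranges receptor genes, had 6.68, 6.48 and 5.38 in NHD13 and 8.22, 11.49 and 12.13 in the knockout group, against 10.87 to 11.31 in wild type. Its fall in the average (-2.73, adjusted p = 0.00833) was thus that of NHD13 and of knockout replicate 1, and the effects differed by -4.60 (adjusted p = 0.0224). Nrp1, a guidance receptor, had 6.53, 6.89 and 7.51 in NHD13 and 10.67, 11.74 and 11.42 in the knockout group, against 10.58 to 11.04 in wild type. Another Nrp1 probe gave -4.07 in NHD13 and 0.69 in the knockout group, but a dimmer one gave -3.36 and -1.02. T-lineage transcription factors were lower in 2 of 20 in the average, beside 8.41% of all genes. In NHD13 2 were higher and 1 lower, beside 9.04% and 11.3% of all genes. In the knockout group 3 were lower, beside 5.14%, and the effects differed in 5, beside 14.3%. Of the 2 lower in the average, Lef1 had 7.79, 7.70 and 6.70 in NHD13 and 4.73, 9.97 and 9.44 in the knockout group, against 10.23 to 10.70 in wild type. Lef1 was below wild type on all 6 fusion-carrying arrays and called in the average (-2.71 ± 0.73, adjusted p = 0.0272), but in neither group alone (adjusted p = 0.0772 in NHD13 and 0.128 in the knockout group). Cd28, a costimulatory receptor, was likewise lower in the average (-1.32, adjusted p = 0.0199) and in neither group alone.

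**Figure D4:**
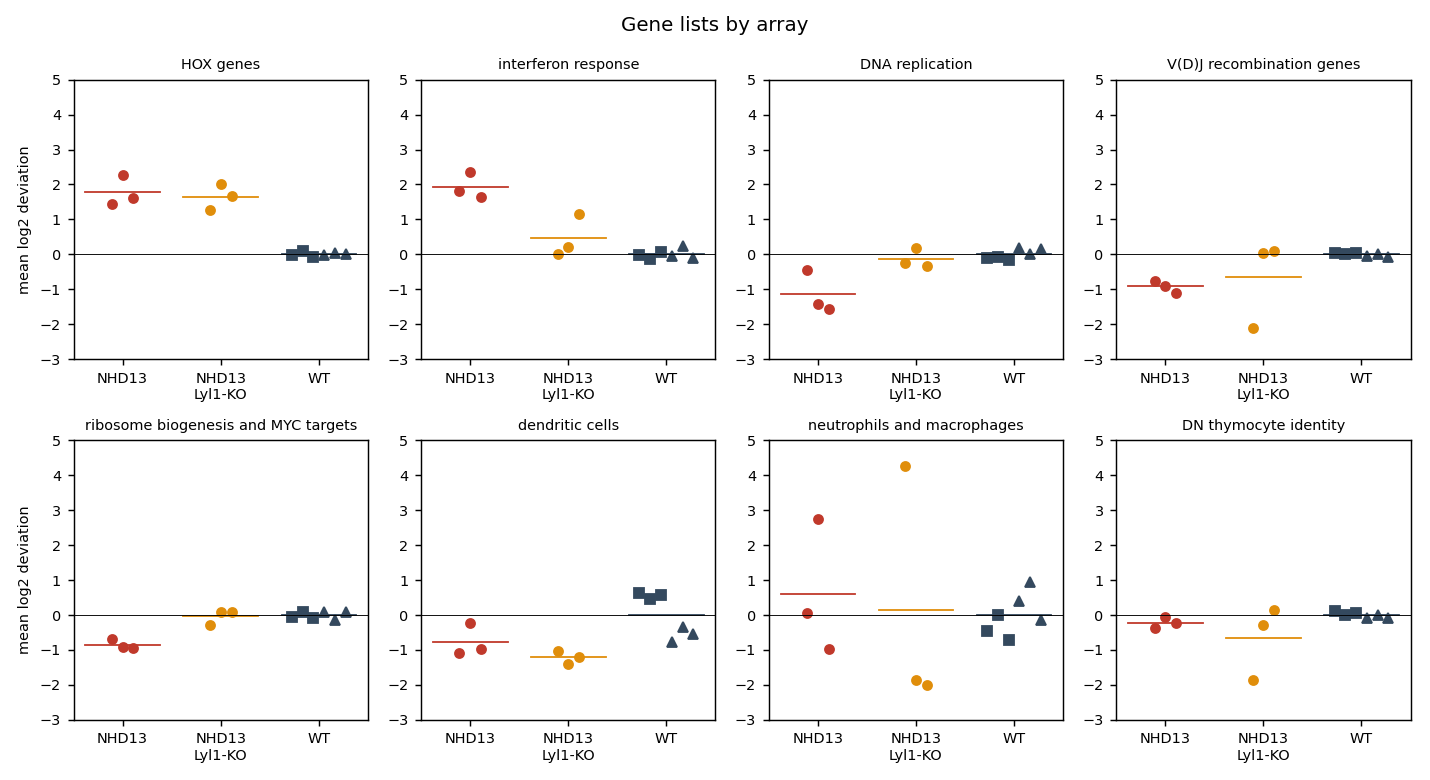
Mean log2 deviation of the measured members of 8 gene lists from the mean of the 6 wild-type arrays, per array, with group means as lines; in wild type, squares are replicates 1 to 3 and triangles replicates 4 to 6. HOX genes lie at 1.27 to 2.26 on all 6 fusion-carrying arrays; DNA replication, ribosome biogenesis and interferon lists move mainly in NHD13, and knockout replicate 1 stands apart in the neutrophil and macrophage, V(D)J and DN identity lists.

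The sorted cells could hold other cell types, and their markers are given for every list. Of 11 measured DN identity genes 1, Ptprc, was lower in the average, beside 8.41% of all genes. Ptprc was lower by 1.06 on the log2 scale (-1.06 ± 0.20, adjusted p = 0.00579), through the knockout group alone (-2.00 there and -0.13 in NHD13), and 2 other Ptprc probes were not called. Dendritic cell markers were lower in 8 and higher in 2 of 12 in the average, beside 8.41% and 10.5% of all genes. In the knockout group 8 were lower and in NHD13 1, beside 5.14% and 11.3%. In both groups 1, Klk1, was lower, beside 0.714%, or 1 higher and 3 lower with the classes crossed. Their mean deviation was -1.09, -0.23 and -0.98 in NHD13 and -1.04, -1.39 and -1.19 in the knockout group, against 0.47 to 0.62 in wild type 1 to 3 and -0.78 to -0.34 in wild type 4 to 6. The wild-type arrays thus differed among themselves, and the knockout values are read against the higher of them. NK and innate lymphoid markers were lower in 6 of 12 in the average, beside 8.41% of all genes. In NHD13 5 were lower and in the knockout group 1, beside 11.3% and 5.14%. In both groups 0 were lower, or 1 without knockout replicate 1. Klra3, an NK cell receptor, had 7.24, 7.27 and 6.11 in NHD13 and 4.55, 8.18 and 11.65 in the knockout group, against 11.54 to 12.15 in wild type (-4.25 ± 0.90, adjusted p = 0.00984). The receptors of this family are near-identical, so that its probe may read more than 1 gene.

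Neutrophil and macrophage markers were called in 0 of 17 in the average, but varied most between arrays. With knockout replicate 1 left out, 1 was higher and 4 lower in the average, and 4 were lower in the knockout group. Their mean deviation was 0.06, 2.74 and -0.97 in NHD13 and 4.27, -1.87 and -1.99 in the knockout group, against -0.72 to 0.96 in wild type. Erythroid markers were higher in 3 of 5 in the average, beside 10.5% of all genes, and in 0 in both groups, or 1 without knockout replicate 1. With the classes crossed 4 were higher in NHD13 and 0 in the knockout group. B cell markers were lower in 2 of 7 and thymic stroma markers higher in 1 and lower in 1 of 6, beside 10.5% higher and 8.41% lower of all genes. Gamma delta T cell and megakaryocyte and mast cell markers were called in 0 of 7 and 0 of 4. Of the gamma delta T cell markers, 1 was higher in both groups without knockout replicate 1. In bulk RNA, fewer cells of a type and less RNA per cell cannot be told apart, and the part of these cells in the shared genes was not tested. The mean deviation of the HOX genes was 2.01 and 1.68 on knockout replicates 2 and 3, where neutrophil and macrophage markers were lowest, and 1.27 on replicate 1, where they were highest. In NHD13 it was 1.44, 2.26 and 1.62, and there replicate 2 was highest for the HOX genes and for these markers alike. How these levels relate was not tested.

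**Figure D5:**
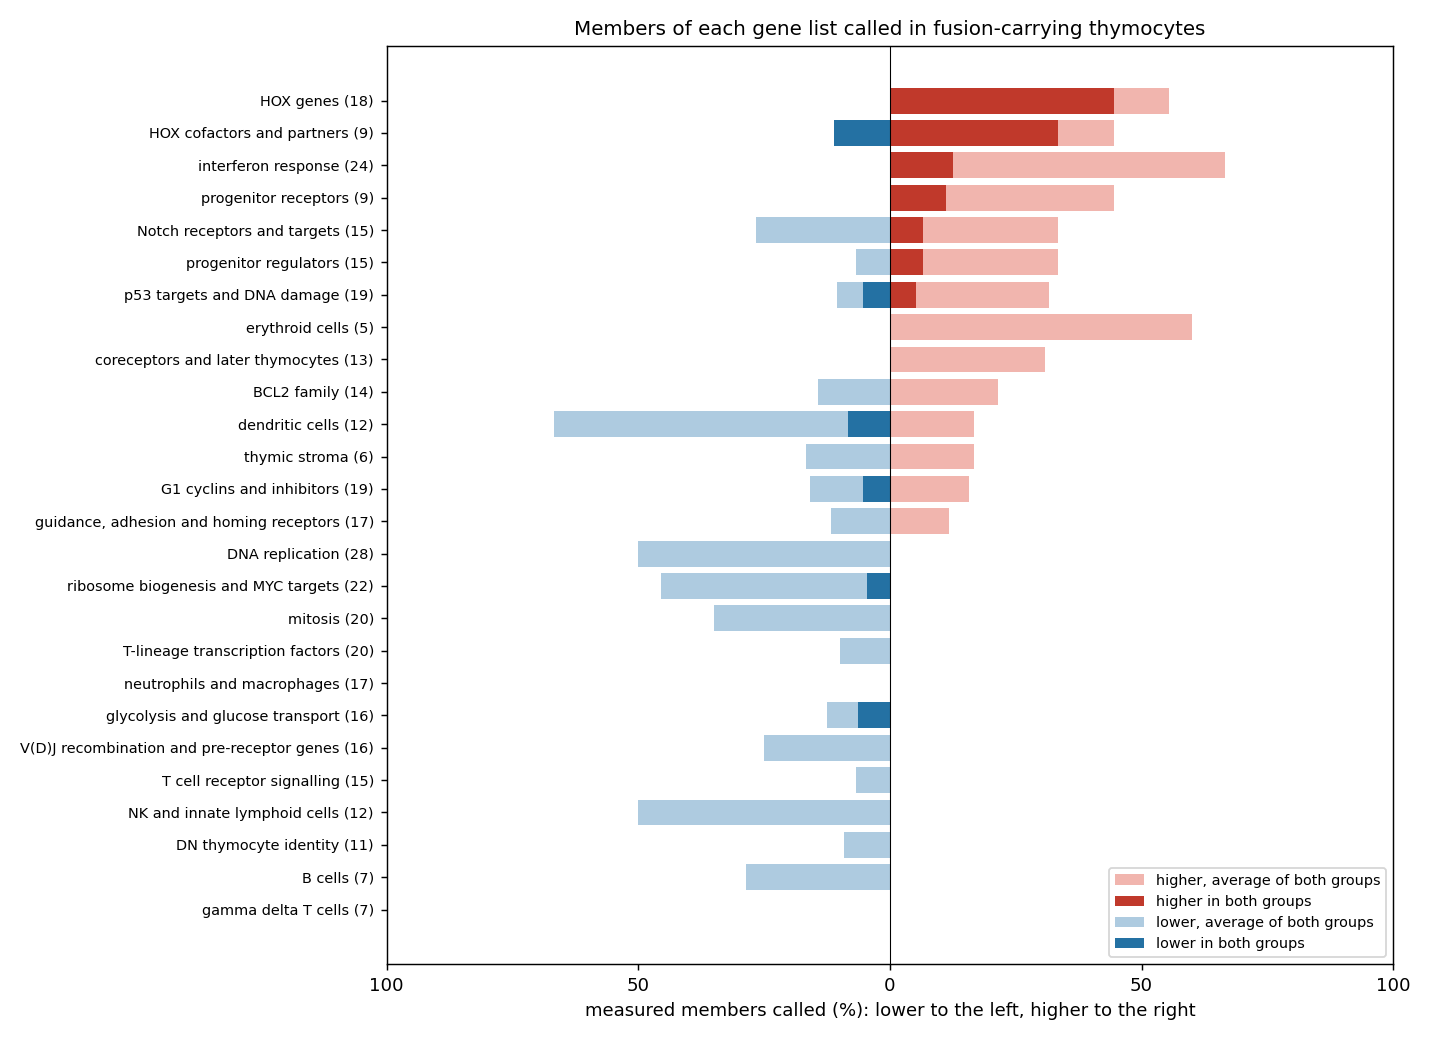
Percent of the measured members of each gene list with 5 or more measured (number in brackets) called higher (right, red) or lower (left, blue) in fusion-carrying against wild-type thymocytes; pale bars show the average of both groups and dark bars calls in both groups. HOX genes have the longest dark bar (8 of 18), while DNA replication and NK cell markers have pale bars only.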

How the data were processed

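RNA of sorted DN thymocytes was measured on 12 Illumina MouseWG-6 v2.0 arrays, with BeadStudio and limma named as tools in the submitters' processing notes. The authors deposited, per the file headers, a bead-summarised intensity and a detection p-value for each of 45281 probes, and a table of log2 values, and no source used here says how it was made. Those values correlated with the ones made here at 0.9998 or more and served as an alternative.

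Intensities were background-corrected from the detection p-values and quantile-normalized with neqc (limma 3.58.1, R 4.3.3, offset 16). The 20416 probes that 3 or more arrays detected (p-value under 0.05) were tested. The platform annotation gave 34885 probes 1 symbol, 18 several and 10378 none, and a gene took its kept probe of highest mean signal (10497 genes). The fit had 4 means (NHD13, NHD13 Lyl1-knockout and wild type by background class). Contrasts were tested with limma's moderated test and adjusted by Benjamini and Hochberg over all kept probes, and called at an adjusted p under 0.05. In every sentence of the report an adjusted p is limma's. Where no array of a side detected a probe, the fold is a bound against the lowest signal that counts as detected on each array. The fit was tested on simulated data.

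Named genes were, by rule, the 12 highest and 12 lowest differences among genes called in both matched comparisons and in the average without overlap, up to 4 members of each of 28 lists (519 genes, 373 measured), the checks Lyl1, Lmo2, Hoxd13 and Nup98, 4 genes with unequal shared effects, and runs of 3 neighbours. Members, lists and rules were chosen with earlier results of these data known. Replicate numbers do not pair the arrays, since correlations of same-numbered arrays ran from -0.15 to 0.17. Alternatives changed normalization, filter, fit, covariate, weights, matching and arrays left out.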

Additional observations from a re-analysis of the deposited data

Results flagged for a closer look

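Single arrays lay far from the others of their side for several named genes, by a gap test that chance meets in about 1 in 20 groups. With 55 named genes, several such flags would be met by chance alone. Among fusion-carrying arrays, NHD13 Lyl1-knockout replicate 1 had a log2 signal of 5.47 for Zfpm2 (the others 8.68 to 9.75) and of 7.25 for Eya1 (the others 8.26 to 8.59). Among wild-type arrays, replicate 1 had 5.16 for Hoxc6 (the others 4.63 to 4.83), replicate 2 had 5.24 for Zfpm2 (4.55 to 4.72) and replicate 3 had 8.53 for Gprc5b (7.40 to 7.82). No wild-type array detected Hoxc6, so that its flag rests on signals not above background. For Zfpm2, Eya1, Hoxc6 and Gprc5b the 2 sides did not overlap with these arrays in place.

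The difference from matched wild type was unequal in the 2 transgenic groups, by limma's test (NHD13 minus NHD13 Lyl1-knockout), in 10 named genes. It was 6.45 for Lyl1 by the measured signals, but no array of the knockout group detected the removed gene, so that this size rests on signals not above background there. It was 2.56 for Lcn4, 2.69 for Clec4e, 2.41 for P2ry1 and 2.13 for Tgfb3, all called higher in both groups. It was -4.60 for Rag1 and -4.63 for Nrp1, called lower in NHD13 and not in the knockout group, though a dimmer Nrp1 probe gave -1.02 there. The difference between the groups' effects was 4.37 for Hba-a1, an alpha globin gene, which had 11.70, 12.85 and 10.02 in NHD13 and 4.58, 5.50 and 7.39 in the knockout group, against 4.73 to 7.88 in wild type. It was 2.89 for Fcrla, a gene of B cells, and 1.87 for Ptprc, both called lower in the knockout group and not in NHD13. For Fcrla the wild-type arrays split, with 9.26 to 9.57 on replicates 1 to 3 and 6.86 to 7.59 on replicates 4 to 6, so that the knockout values of 5.08 to 6.46 were set against the higher of them.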

How the results depend on the processing

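The counts here are of probes: 1819 higher and 1980 lower in the average, 3583 called in NHD13, 3045 in the knockout group, 211 higher and 171 lower in both, and 3064 with unequal effects. Median scaling gave 4632 higher and 892 lower, 6470 in the knockout group, and 742 higher and 80 lower in both. Probes detected on all arrays gave 2004 in the knockout group. Separate fits gave 515 higher and 576 lower, 1270 in the knockout group, and 84 and 77 in both, with no test of unequal effects. A 3-group fit gave 1953 in the knockout group and 285 lower in both. Sex as a covariate gave 1019 higher and 989 lower, 653 in the knockout group, 67 higher and 64 lower in both, and 754 unequal. Array weights gave 2746 higher, 6179 in NHD13, 4696 in the knockout group, 450 higher and 338 lower in both, and 6389 unequal. The replicate block gave 1126 higher and 1100 lower, 1393 in the knockout group and 379 lower in both, though the numbers are not known to pair the arrays. Crossed matching, added after the data were seen, gave 6162 in NHD13 and 1945 in the knockout group. The cause of these shifts was not tested.

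Leaving out 1 array at a time gave 1173 (without wild type 4) to 2060 (without knockout 1) higher, 1252 (without wild type 4) to 2363 (without NHD13 1) lower, 1379 (without wild type 6) to 4849 (without knockout 1) in NHD13, 1360 (without wild type 3) to 3464 (without NHD13 1) in the knockout group, 97 (without wild type 3) to 254 (without NHD13 1) higher in both, 67 (without wild type 6) to 243 (without NHD13 1) lower in both, and 1320 (without wild type 4) to 4233 (without NHD13 1) unequal. Of 1274 values of 55 named genes under the alternatives, 1204 kept direction and call, 68 (in 23 genes) lost the call, 1 gained it and 1 turned, another Zfpm2 probe at -0.08. Groups of 3 arrays, the confounded sex and background class of the knockout comparison and dim signals limit what can be called.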

Other observations

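Apart from the HoxA genes, the other run of 3 neighbours called the same way in both groups was of the kallikrein proteases Klk1b27, Klk1b5 and Klk1 on chromosome 7, all lower, with average differences of -1.40, -1.10 and -1.78. Klk1 was not detected on any fusion-carrying array (4.44 to 4.71) and had 5.35 to 7.44 in wild type, at least 1.99-fold lower (adjusted p = 0.000371). It passed the detection filter only through wild-type arrays and could not have been called higher. These genes are near-identical copies, so that their probes may read each other's transcripts. There were 10 further pairs of neighbours. Among them were Dgke and Dgkeos on chromosome 11, both lower (-1.74 and -3.85), Agrn and Isg15 on chromosome 4, both higher (2.10 and 2.57), Tgfb3 and Ift43 on chromosome 12, both higher (2.14 and 1.38), and Wdr78 and Mier1 on chromosome 4, both lower (-2.66 and -0.98). These pairs were picked for the text after their values were seen.

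Ccr7, a homing receptor of later thymocytes, had 8.36, 7.70 and 7.39 in NHD13 and 6.35, 7.23 and 6.88 in NHD13 Lyl1-knockout, against 5.75 to 6.17 in wild type. All 6 fusion-carrying arrays lay above wild type, but the knockout group was not called alone (0.75, adjusted p = 0.0858). Bcl2a1d, an antiapoptotic gene, was lower in the average (-1.47, adjusted p = 0.0264) and in NHD13 (-2.21), while the knockout arrays had 7.86, 7.95 and 10.19 against 9.13 to 9.52 in wild type. Smc2, a condensin subunit, was lower in the average (-1.32, adjusted p = 0.016) and in neither group alone. Aire, a gene of thymic stroma, was lower by 0.48 on the log2 scale (-0.48, adjusted p = 0.0455) at signals near the background.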
